A study of Zea mays with 8 samples.

Results

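Opaque2, PBF1, NAC128 and NAC130 are transcription factors that act while the maize (Zea mays) endosperm fills with storage protein and starch, and their transcripts were followed here in a KIL1 KIL2 knockout and in wild type. The 4 genes were taken by their identifiers in the deposited count table, which held 37965 genes in all: opaque2 (Zm00001d018971), pbf1 (Zm00001d005100), nac128 (Zm00001d040189) and nac130 (Zm00001d008403). RNA-seq was made from endosperm of the inbred line A188 at day 19 after pollination, from tissue enriched for the EAS, the layer of endosperm that faces the scutellum of the embryo. The series holds 4 libraries of the KIL1 KIL2 knockout and 4 of wild type, all of the same line, tissue and age, and its question is what the loss of these NAC-family factors does to this tissue. The labels used here give neither the alleles of the knockout nor the ears or plants behind a library, so a p-value here reflects library-to-library spread alone, part of which may be technical.

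The prolamins of maize, called zeins, are storage proteins made in the starchy endosperm under the control of a small set of transcription factors. Opaque2 is a bZIP factor that binds zein gene promoters and also acts on genes of amino acid and carbon metabolism. Its loss gives soft, opaque kernels with fewer zeins and more lysine. PBF1 is a Dof-type factor that binds the prolamin box of zein promoters and can interact with Opaque2. NAC128 and NAC130 are closely related NAC factors of the endosperm that promote zein and starch accumulation and overlap in function. KIL1 and KIL2 also belong to the NAC family, and the title of the series links them to the elimination of the endosperm.

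Total counts per library were 47143888 to 65625013 for the knockout and 58330218 to 80577963 for wild type. The TMM factors, which correct library totals for composition, were 0.929 to 0.975 in the knockout and 1.02 to 1.07 in wild type. The scaling itself thus differed between the genotypes without overlap. The fold change of each member is therefore given with library totals as well. CPM values below and their order between libraries use TMM factors and can differ from plain shares of all counts. The gene identifiers of the table matched 0 of the 49888 genes of the RefSeq table used for names, so KIL1, KIL2, the markers of the EAS and of its neighbouring tissues, and the planned lists of zein, starch and other regulator genes were not analysed here. The genotype and tissue labels were therefore not checked against marker genes. For the members themselves, the RefSeq table placed the names o2 and pbf1 on chromosomes 7 and 2, the chromosomes on which the deposited table placed these genes. NAC128 and NAC130 had 0 entries under those names.

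All 4 regulators were abundant transcripts, and opaque2 was the only one of them whose level changed past the threshold in the knockout. It rose 1.43-fold. pbf1 lay within a few percent of its wild type level, and nac128 and nac130 were 1.10-fold and 1.09-fold of wild type without passing the test. The test was edgeR's quasi-likelihood test over all 22014 genes that passed a filter on low counts, with a threshold of 0.05 on the p-value adjusted by Benjamini-Hochberg. In that test 18.6% of genes changed in either direction, 8.51% were higher in the knockout and 10.1% lower, so 1 of 4 members called is near the share among all genes. DESeq2, an alternative test, called 20% of the genes it tested and the same single member. All 4 members passed the count filter. In bulk tissue a larger share of cells that use a gene and more RNA of it per cell cannot be told apart.

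**Figure D1:**
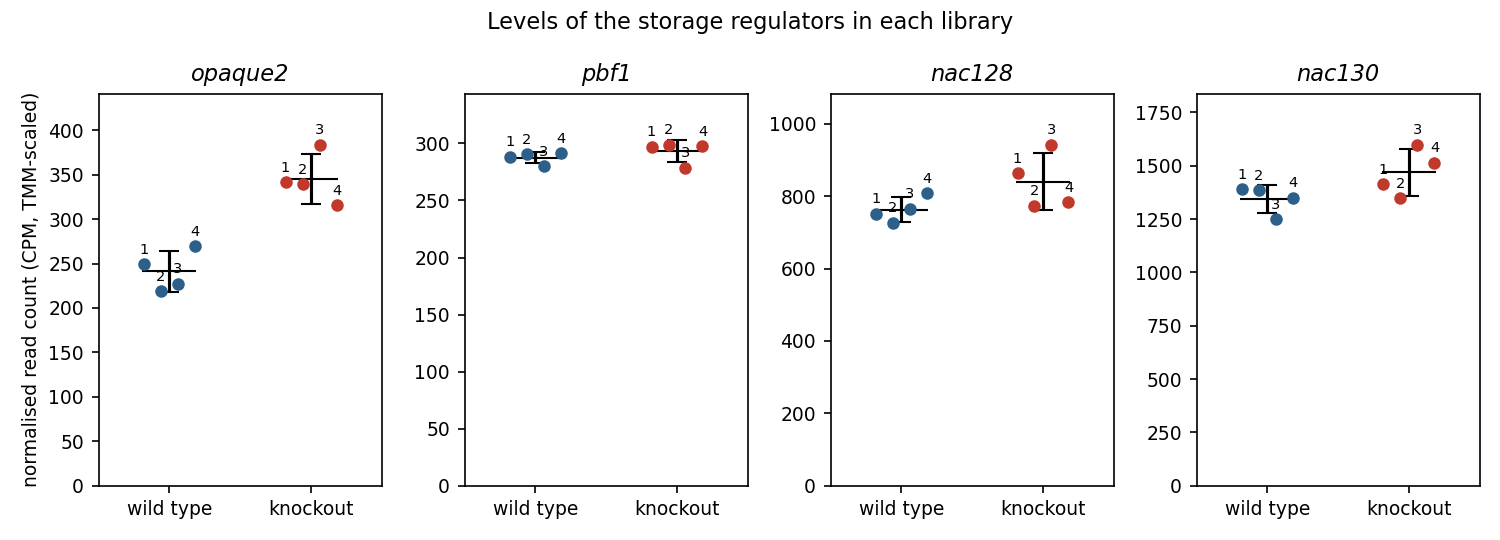
Normalised read count (CPM, the count scaled to a library of fixed size with TMM factors) of each regulator in the 4 wild type and 4 knockout libraries, numbered by replicate. Points are libraries, horizontal bars means and vertical bars SD, on axes that start at 0. The knockout libraries of opaque2 lie between 316 and 384 CPM, all above the wild type libraries, while the groups overlap for the other 3 genes.

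Opaque2, the bZIP activator of zein genes, was counted 14618 to 20831 times per library. Its level was 342, 339, 384 and 316 CPM in knockout replicates 1 to 4 and 249, 219, 227 and 269 CPM in wild type replicates 1 to 4. Every knockout library was above every wild type library, with the nearest libraries at 316 and 269 CPM. The libraries of the groups were apart for 23.2% of all tested genes, and for 10.8% with the knockout higher. The mean was 241 ± 22.7 CPM in wild type and 345 ± 28.3 CPM without KIL1 and KIL2 (SD, n = 4). On the log2 scale the rise was 0.52 with an SE of 0.077 (edgeR adjusted p = 0.0011), and the 95% interval of the fold ran from 1.27-fold to 1.61-fold.

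Opaque2 was past the threshold under each scaling run and without each of the 8 libraries. As a plain share of all counts, with no scaling, opaque2 held 0.0308% to 0.0356% in the knockout and 0.0233% to 0.0276% in wild type, again without overlap. The percentages of genes with the groups apart given above use TMM-scaled CPM, and the same was not counted for plain shares. Scaled by library totals alone, the rise was 1.32-fold (edgeR adjusted p = 0.00141), while the median log2 fold change of all tested genes moved from -0.0033 to -0.12. Measured from that median, opaque2 was higher by 0.52 on the log2 scale under either scaling. A change of scaling shifts all genes by nearly the same amount, so this agreement cannot show which scaling is right. Leaving out each library in turn gave 1.38-fold (without knockout replicate 3) to 1.49-fold (without wild type replicate 4).

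PBF1, the Dof factor of the prolamin box, was at nearly the same level in both genotypes. It measured 297, 299, 279 and 298 CPM in knockout replicates 1 to 4 and 288, 291, 280.1 and 291 CPM in wild type replicates 1 to 4. With TMM factors, knockout replicate 3 held the lowest value of all 8 libraries and the other 3 knockout libraries the highest, so the groups overlapped. The means were 293 ± 9.61 CPM and 288 ± 5.14 CPM (SD, n = 4). The difference of 0.027 on the log2 scale (SE 0.044) did not pass the test (edgeR adjusted p = 0.718). The 95% interval ran from 0.952-fold to 1.09-fold, which does not reach a change of the size estimated for opaque2. With library totals the sign turned (0.941-fold, edgeR adjusted p = 0.223). As a plain share of all counts the groups were apart for pbf1 too, in the direction opposite to opaque2. The share was 0.0259% to 0.0291% in the knockout and 0.0292% to 0.0310% in wild type. How many of all genes are apart on this measure was not counted. Library totals lower nearly all genes by a shared shift. Measured from the median of all tested genes, pbf1 stood at 0.031 with TMM factors and 0.032 with library totals on the log2 scale.

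nac128, the first of the NAC pair, spread more among the knockout libraries than among wild type. It measured 863, 773, 942 and 783 CPM in knockout replicates 1 to 4 and 751, 727, 765 and 808 CPM in wild type replicates 1 to 4. Knockout replicates 1 and 3 were above all wild type libraries, and knockout replicates 2 and 4 lay among them. As a plain share of all counts, knockout replicates 2 and 4 held 0.0753% and 0.0763%, below the 0.0775% to 0.0827% of wild type. The means were 840.3 ± 79.1 CPM and 763 ± 34 CPM (SD, n = 4), and the difference did not pass the test (log2 fold change 0.14, SE 0.069, edgeR adjusted p = 0.192; 95% interval 0.992-fold to 1.22-fold).

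nac130, its partner, was the most abundant of the 4 regulators. It measured 1414, 1348, 1599 and 1515 CPM in knockout replicates 1 to 4 and 1389, 1385, 1250.1 and 1351 CPM in wild type replicates 1 to 4. Knockout replicates 1, 3 and 4 were above all wild type libraries, and knockout replicate 2 was above wild type replicate 3 and below the others. As a plain share of all counts, knockout replicate 1 held 0.136% and lay below wild type replicates 1, 2 and 4. The means were 1469 ± 110 CPM and 1344 ± 64.8 CPM (SD, n = 4), with a log2 fold change of 0.13 (SE 0.064, edgeR adjusted p = 0.199; 95% interval 0.991-fold to 1.21-fold). Both intervals of the NAC pair reach just below 1 and exclude a rise as large as the 1.43-fold estimated for opaque2. With library totals both estimates shrank to 1.02-fold for nac128 and 1.01-fold for nac130, a shift shared by all genes: measured from the median of all tested genes, nac128 stood at 0.143 with TMM factors and 0.142 with library totals on the log2 scale, and nac130 at 0.132 and 0.131.

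**Figure D2:**
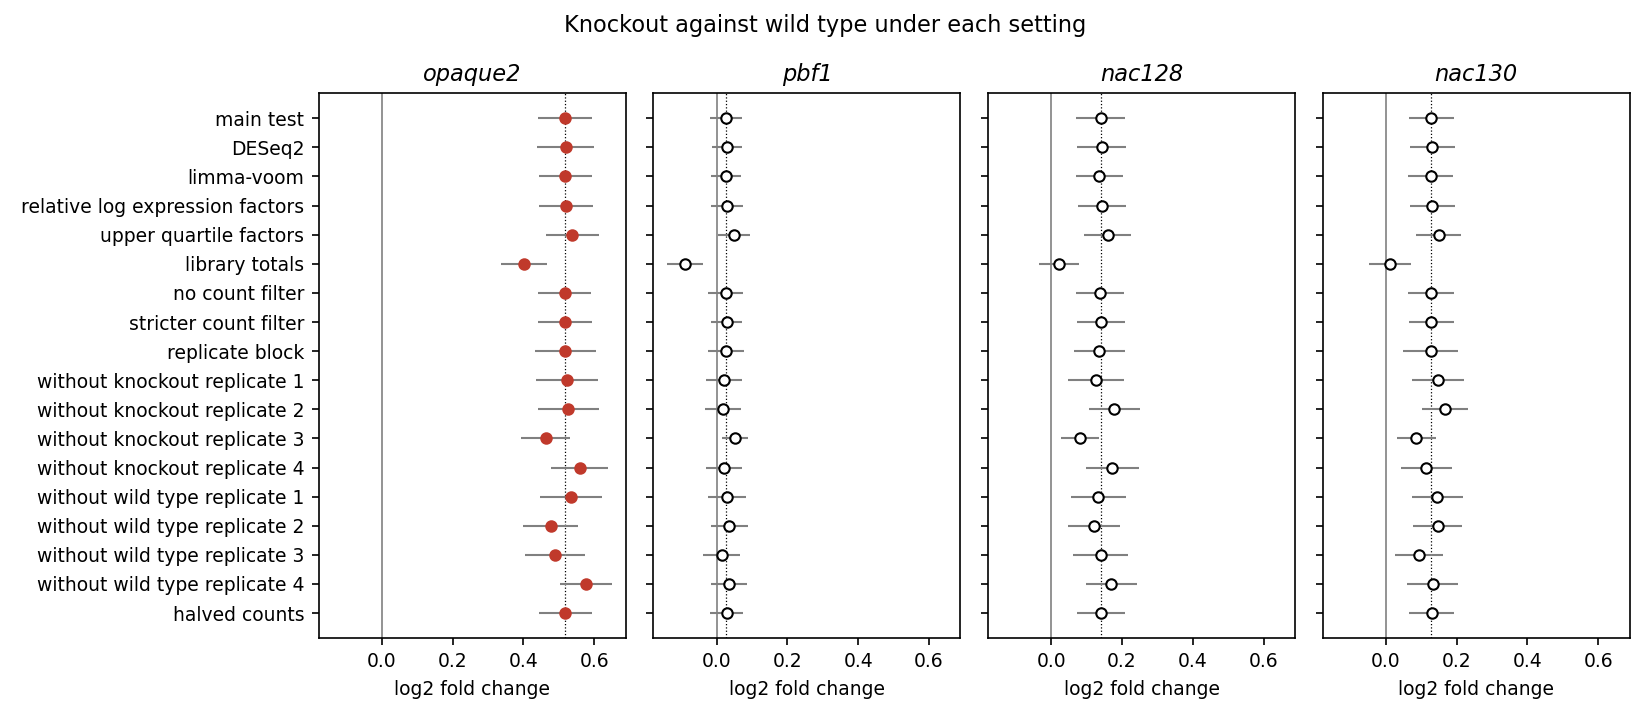
Log2 fold change of each regulator, knockout against wild type, under the main test and each alternative setting. Points are estimates, horizontal lines ± 1 SE, the dotted line marks the main estimate, and filled red points have an adjusted p below 0.05. Opaque2 is filled in every setting shown, from 0.40 to 0.58, and the other 3 genes are open in all of them.

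The counts behind these values were large, so counting error was small beside the spread between libraries for opaque2, nac128 and nac130. For pbf1, which varied least, it was below the spread but a larger part of it. The smallest count of any member was 13503 (pbf1, knockout replicate 1), for which the Poisson error is 0.861% if reads are taken as independent and 1.22% if each read pair is taken as 1 fragment. The biological coefficient of variation that edgeR estimated was 8.34% for opaque2, 5.55% for pbf1, 7.61% for nac128 and 7.17% for nac130. The median was 10.1% over all tested genes and 7.17% over the 375 genes at least as abundant as pbf1. pbf1 was the steadiest of the members: its log2 SD within genotypes was 0.039, and 93.3% of the 375 genes at least as abundant as pbf1 varied more. For opaque2 this SD was 0.13, and 30.1% of those genes varied more.

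With TMM factors, rises outnumbered falls among genes at least as abundant as pbf1, the least abundant of the regulators by CPM. By mean CPM, nac130 ranked 54, nac128 97, opaque2 366 and pbf1 375 among the 22014 tested genes. Among these 375 most abundant genes 37.3% changed, with 30.7% higher in the knockout and 6.67% lower, and their median log2 fold change was 0.099, where it was -0.0033 over all tested genes. With library totals this balance was lost, with 18.9% higher and 17.9% lower and a median of -0.018. Their median was above that of all tested genes by 0.10 under either scaling, a distance that a shift shared by all genes leaves nearly unchanged. Of the 375 genes, 9.87% rose by at least as much as opaque2. The estimates for nac128 and nac130 lie close to the median of these 375 genes, and that of pbf1 lies below it. No median was taken for genes at the level of the NAC pair alone. Of the abundant genes 90.4% had a larger log2 fold change in either direction than pbf1.

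**Figure D3:**
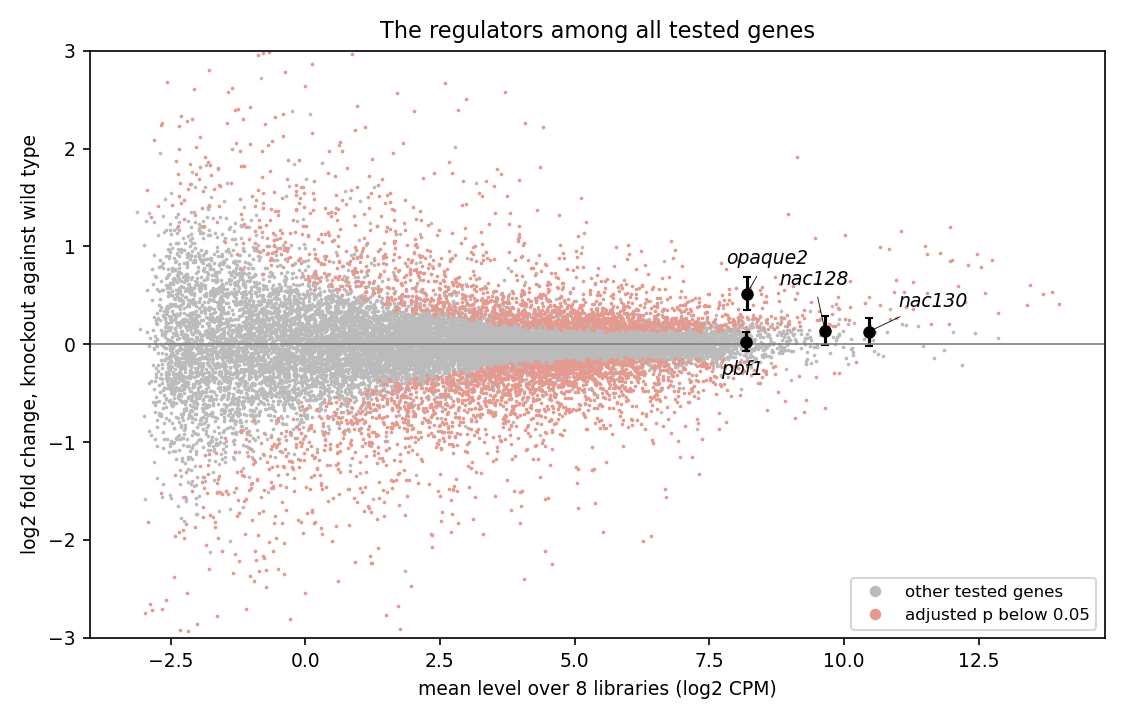
Log2 fold change, knockout against wild type, against the mean level over 8 libraries (log2 CPM) for all tested genes, with the regulators in black and their 95% intervals as vertical bars. Pink points have an edgeR adjusted p below 0.05, and 29 genes beyond 3 on either side are outside the axis. The regulators lie at the abundant end, with opaque2 at 0.52 and the other 3 near 0.

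Whether opaque2 moved apart from its partners was examined within each library, since a ratio of counts from the same library does not depend on scaling. For every 100 pbf1 counts there were 106 to 138 opaque2 counts in each knockout library, against 75.2 to 92.5 in wild type. The groups did not overlap: all 4 knockout libraries held more opaque2 than pbf1 counts and all 4 wild type libraries fewer. The log2 ratio was 0.23 ± 0.16 in the knockout and -0.26 ± 0.13 in wild type (SD, n = 4), a 1.41-fold difference. Its p was 0.0286, the smallest that 4 libraries against 4 can give (exact permutation test, two-sided). Adjusted over the 3 ratios tested it was 0.0857, which misses 0.05. A ratio at this smallest p could not pass alone, since the adjustment needs another of the 3 ratios at it too.

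Within the NAC pair the balance was close to that of wild type. nac128 had 51.7 to 61 counts per 100 nac130 counts in the knockout and 52.5 to 61.2 in wild type, ranges that nearly coincide. The log2 ratio was -0.81 ± 0.10 in the knockout and -0.82 ± 0.11 in wild type (SD, n = 4; exact permutation test, two-sided, p = 0.943, adjusted over the 3 ratios 0.943). The summed level of the pair was 2122 to 2542 CPM in the knockout, which overlapped the 2015 to 2159 CPM of wild type. As a plain share of all counts the pair held 0.207% to 0.236% in the knockout and 0.210% to 0.225% in wild type.

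The third ratio set the mean of opaque2 and pbf1 against the mean of the NAC pair. It was -1.80 ± 0.094 on the log2 scale in the knockout and -1.94 ± 0.040 in wild type (SD, n = 4), a 1.10-fold difference. The groups overlapped by 1 knockout library, replicate 3, at -1.91, beside the highest wild type library at -1.90 (exact permutation test, two-sided, p = 0.0571, adjusted over the 3 ratios 0.0857). In counts, opaque2 stood at 39.6 to 43.8 per 100 nac128 counts in the knockout and 29.7 to 33.3 in wild type, and at 20.9 to 25.1 per 100 nac130 counts against 15.8 to 19.9. Neither of these ranges overlapped between genotypes, but both take the same opaque2 counts as the first ratio and are not separate results. The ratios of pbf1 to nac128 and to nac130 did overlap, at 29.6 to 38.7 against 36.1 to 40 and at 17.4 to 22.2 against 20.8 to 22.4. These 4 ratios were added after the values were seen and were not tested.

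**Figure D4:**
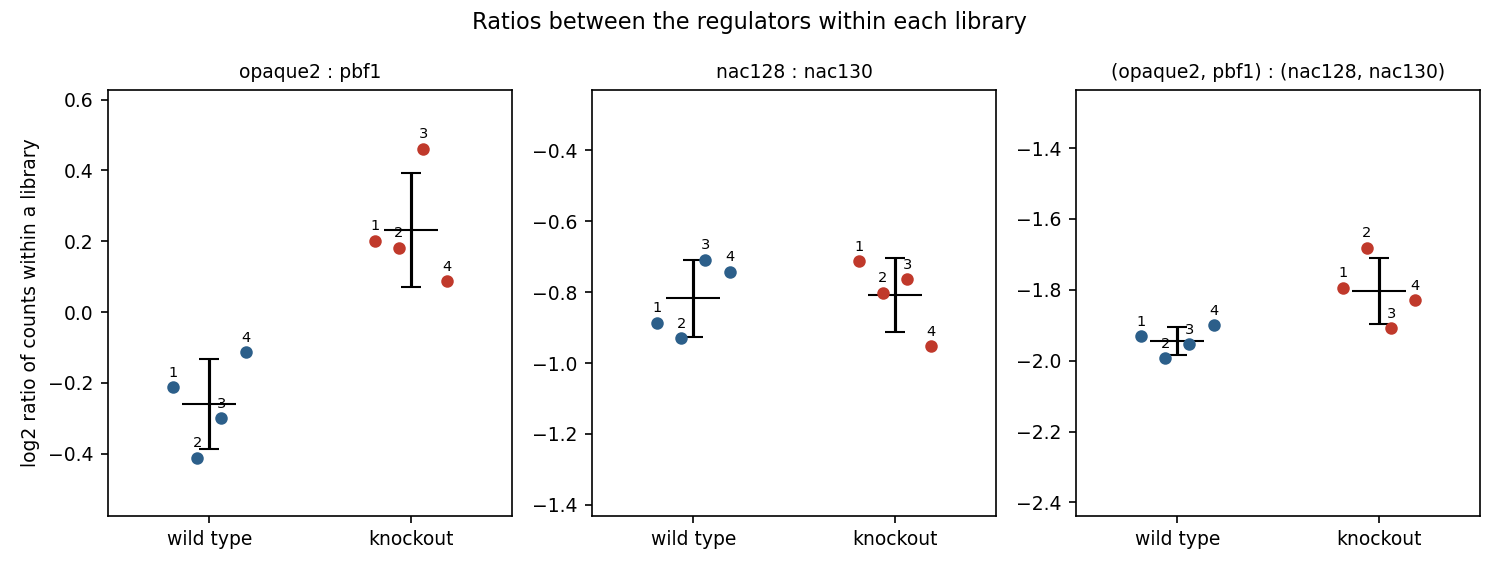
Log2 ratio of counts within each library for opaque2 to pbf1, nac128 to nac130, and the mean of the first pair to the mean of the second, with libraries numbered by replicate, means as horizontal bars and SD as vertical bars. The vertical axes span the same log2 range. The genotypes are apart for opaque2 to pbf1, coincide for nac128 to nac130, and overlap by 1 library in the third panel.

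Knockout replicate 3 was at the end of the range for each member. It held the highest level of opaque2, nac128 and nac130 among all 8 libraries and the lowest of pbf1. It also had the lowest TMM factor, 0.929, and the part of that in these values was not tested. Without it opaque2 was still 1.38-fold higher (edgeR adjusted p = 0.00169), and the estimates for nac128 and nac130 came to 0.081 and 0.086 on the log2 scale.

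Between genes, levels were compared per kilobase of exon. The order was the same in all 8 libraries: nac130, nac128, opaque2, pbf1. In wild type nac130 stood at 972 ± 46.8 CPM per kilobase, nac128 at 436 ± 19.4, opaque2 at 138 ± 13 and pbf1 at 28.6 ± 0.511 (SD, n = 4). In the knockout the values in the same order were 1062 ± 79.9, 481 ± 45.2, 197 ± 16.1 and 29.1 ± 0.955 CPM per kilobase. No range of one gene overlapped that of the next in either genotype.

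The place of pbf1 in that order depends on its annotation. Reads were counted over the merged exons of every transcript model of a gene, and for pbf1 these came from 767 exon entries that merge into 6 blocks and 10065 bases, the longest block being 7010 bases. Among the 37965 genes 0.674% had a longer exon length, and the median was 1383 bases. A transcript shorter than the merged exons gives too low a level per kilobase. With a length of 2090 bases in wild type, or 1488 bases in the knockout, pbf1 would equal opaque2. The fold change of pbf1 between genotypes does not use this length, but it sums over all these models and cannot tell one transcript from another.

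The other 3 genes had compact models. opaque2 lies on chromosome 7 (11368765 to 11371617, plus strand, A188 annotation of the deposited table) with 6 merged exons and 1752 bases of exon. pbf1 lies on chromosome 2 (163383450 to 163398003, minus strand). nac128 lies on chromosome 3 (33337968 to 33340082, minus strand) with 4 merged exons and 1748 bases, and nac130 on chromosome 8 (7945361 to 7946884, plus strand) with 2 merged exons and 1383 bases. For each of the 4 genes 0 other annotated genes overlapped the span, so the counting without regard to strand did not mix them with an annotated gene on the opposite strand. nac128 and nac130 are related in sequence, and since reads with several alignments were not counted, reads that aligned to both would be missing from both. Whether there were such reads was not examined.

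**Figure D5:**
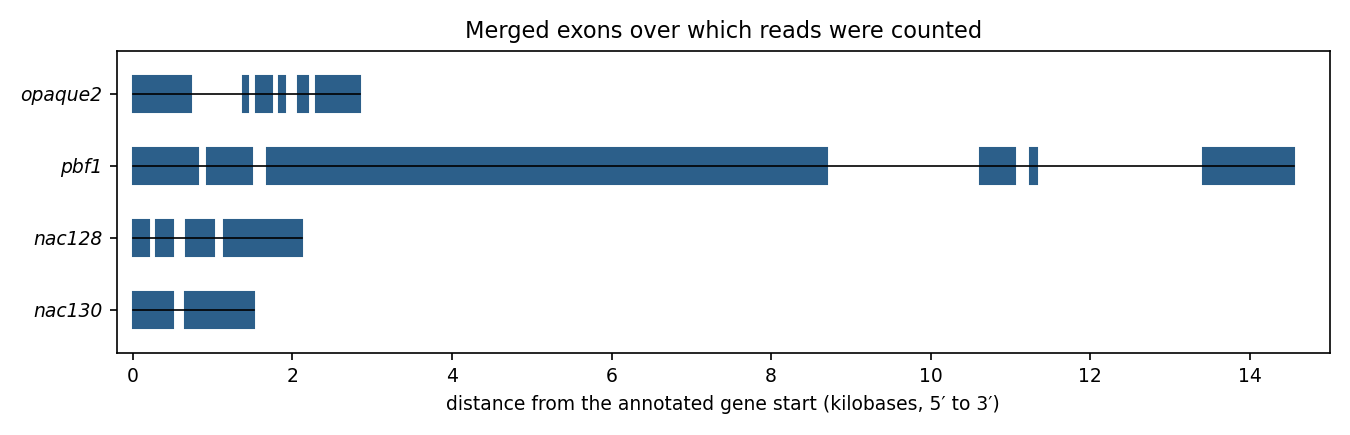
Merged exons (blue) of the 4 regulators in the deposited A188 annotation, drawn 5′ to 3′ from the annotated gene start, in kilobases, with thin lines for the parts between exons. pbf1 spans 14554 bases with 1 block of 7010 bases, and the other genes span 1524 to 2853 bases.

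The genes next to opaque2 on the chromosome did not share its rise. The nearest gene before it, 3013 bases away on the minus strand (chromosome 7, 11361857 to 11365751), was 1.09-fold of wild type (edgeR adjusted p = 0.497), and the next gene after it (11420600 to 11421781) was 0.970-fold (edgeR adjusted p = 0.778). Beside the 18.6% of all tested genes that changed, 1 changed of the 3 neighbours of the other 3 members that passed the count filter. That gene lay 106387 bases beyond nac128 (chromosome 3, 33446470 to 33449792) and fell to 0.765-fold of wild type (edgeR adjusted p = 0.00274), while nac128 itself did not pass the test.

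Genes with a pattern over the libraries most like that of a member were sought among 16283 other genes, those whose mean log2 CPM reached 1, as a description. For opaque2 the closest were Zm00001d019249 (chromosome 7, 24567676 to 24571962), with a Pearson correlation of 0.998 over the 8 libraries, and Zm00001d000399 (chromosome 6, 153321694 to 153326144), with 0.997. Zm00001d019249 was 1.54-fold and Zm00001d000399 1.56-fold of wild type, differences that the choice of genes favours. Both were also among the 3 closest after the mean of each genotype was subtracted, at 0.989 and 0.996. These values come from the same 8 libraries by which both genes were chosen and are not separate evidence. These 8 libraries fall into 2 genotypes, and values as high as these are the extremes of many genes compared over few libraries.

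The 3 genes closest to pbf1 reached 0.943 to 0.958 over the 8 libraries, those closest to nac128 0.984 to 0.992 and those closest to nac130 0.957 to 0.983. With genotype means subtracted, the ranges were 0.987 to 0.990 for pbf1, 0.987 to 0.992 for nac128 and 0.976 to 0.983 for nac130. How these genes differed between the genotypes is not an independent result, since a gene chosen for following a member over all 8 libraries follows its genotype difference too. The table does not pair these identifiers with names.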

How the data were processed

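The deposited table holds raw counts of reads per gene in 8 libraries. Per the file headers they came from featureCounts 2.0.1 with an A188 annotation, with no option set for strand, read pairs, multi-mapping reads or overlapping genes, so both reads of a pair were counted and reads with several alignments were not. The submitters' processing notes also list Trimmomatic 0.39 and HISAT2 (no version stated). Genes were filtered with filterByExpr (22014 kept, 99.96% of counts), scaled by TMM factors and tested with the quasi-likelihood test of edgeR 4.0.16 (R 4.3.3), knockout against wild type, without a replicate block; p-values were adjusted by Benjamini-Hochberg over all tested genes with a threshold of 0.05. Standard errors were derived from the F statistic and 95% intervals from its degrees of freedom. Ratios of counts within libraries were compared with exact permutation tests (SciPy 1.17.1). DESeq2 1.42.0, limma 3.58.1 and other scalings, filters and left-out libraries were alternatives. The test was run on counts simulated from the model that edgeR fitted to these data, with equal numbers of rises and falls. Such counts cannot show whether that model or the scaling suits these data. Members, lists and tests were chosen with earlier results of these data known. Named were the 4 members, the 3 genes most like each by correlation (2 given by identifier) and the nearest neighbours. Lists by gene name could not be matched.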

Additional observations from a re-analysis of the deposited data

Results flagged for a closer look

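Values per library were searched for 1 library far from the other 3 of its group in 14 sets (the CPM of each member and the 3 ratios, in each genotype), where chance flags about 1 set in 20. It was found in 1 set: pbf1 measured 279 CPM in knockout replicate 3, where the other knockout libraries held 297 to 299 CPM. The wild type range of pbf1 was 280.1 to 291 CPM.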

How the results depend on the processing

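Each member was tested under 17 alternatives, of which halved counts (each read pair as 1 fragment) were chosen after seeing the data. Opaque2 rose past the threshold in all 17, with a log2 fold change of 0.40 (library totals) to 0.58 (without wild type replicate 4) and an adjusted p of 4.54e-09 (DESeq2) to 0.00768 (replicate block). pbf1, nac128 and nac130 passed in 0 of 17, with adjusted p of at least 0.223, 0.119 and 0.112. The sign of pbf1 turned in 1 of them, at -0.088 with library totals, a scaling that moves the median of all genes to -0.12. The number of members changed was 1 in all 17, and the number of genes changed lay between 2783 (without wild type replicate 2) and 5775 (library totals), where 1032 rose and 4743 fell. With the replicate block opaque2 was at 0.52 and 3000 genes changed. Libraries with the same number did not deviate together (correlations of 0.0061, 0.088, -0.13 and -0.23 across genes), so the numbers were not taken as pairs. The log2 ratio of opaque2 to pbf1 differed by 0.42 to 0.54 over the left-out libraries, that of nac128 to nac130 by -0.028 to 0.058, and the third by 0.10 to 0.18, with no test, since 3 libraries against 4 cannot pass 0.05. Differenced by replicate number the same ratios gave p = 0.125, 1 and 0.125 in an exact sign-flip permutation test, whose smallest p is 0.125. Without the length correction, chosen after seeing the data, the order nac130, nac128, opaque2, pbf1 held in 4 of 8 libraries, those of the knockout, since pbf1 had more counts than opaque2 in wild type. Depth was not the limit here: the spread between libraries exceeded counting error for every member. The alternatives for gene lists were not run.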
